A study of Mus musculus and Homo sapiens with 8 samples.

Results

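The genes described here are 9 markers of the primary (azurophil) granule and of the promyelocyte stage at which that granule is made, chosen by symbol: MPO, ELANE, PRTN3, CTSG, AZU1, MS4A3, CST7, CLEC12A and CD33. Of the 9, 8 were listed for mouse, among 17097 genes, and all 8 entered the test with 14598 genes in all. Of the 9, 6 were listed for human, among 20296 genes, and 4 entered the test with 16529 genes in all. Azu1 in mouse and MPO, ELANE and PRTN3 in human were not listed in the tables used here and were not analysed.

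RNA sequencing compared control cells with cells in which ANP32B, a nuclear phosphoprotein and histone chaperone, was knocked out or knocked down, in 8 libraries. The mouse cells were LSK cells, the lineage-negative, Sca-1-positive, c-Kit-positive bone marrow gate of stem cells and multipotent progenitors, from C57BL/6 animals, wild type (WT, 2 libraries) or knocked out for Anp32b (KO, 2 libraries). The human cells were KU812, an established line from the blood of a person with chronic myelogenous leukemia, with a control short hairpin RNA (shNC, 2 libraries) or one against ANP32B (shANP32B, 2 libraries). The labels give neither the age of the mice nor the way the knockout was made, all KU812 libraries come from 1 line, and no label says whether replicates were separate animals or cultures. The p-values given here therefore speak of variation among these libraries only, part of which may be technical.

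Neutrophil precursors make their primary granules at the promyelocyte stage and fill them with myeloperoxidase (MPO) and with neutral serine proteases: neutrophil elastase (ELANE), proteinase 3 (PRTN3) and cathepsin G (CTSG). Azurocidin (AZU1) is a related protein without protease activity, and the proteases are activated in the granule by cathepsin C. MPO transcripts already occur in early progenitors, and transcription of this gene group depends on C/EBP factors, PU.1, RUNX1 and MYB, while the transcripts decline as neutrophils mature. MS4A3 is a membrane protein of granulocyte-monocyte progenitors and basophils, CST7 (cystatin F) an inhibitor of cysteine cathepsins, cathepsin C among them, and CLEC12A and CD33 are inhibitory receptors of the myeloid surface.

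The LSK libraries held 10549358 to 15683480 counts and the KU812 libraries 24416691 to 28209409. Levels are given as CPM, counts scaled to 1 common library size with the TMM factors of edgeR, so 3 counts stand for 0.197 to 0.286 CPM in LSK and 0.107 to 0.122 CPM in KU812. These floors cover counting error only. The targeted gene was lower in each perturbed library, but its reads remained in all of them. Anp32b stood at 794 and 730 CPM in WT against 201 and 249 in KO. ANP32B stood at 250 and 286 CPM in shNC against 40.4 and 38.2 in shANP32B. The WT libraries lay farther from each other than the KO libraries (over genes, chi-square per degree of freedom 47.7 in WT and 7.7 in KO), and no LSK gene passed an adjusted p of 0.05 in the edgeR quasi-likelihood test, Anp32b included (adjusted p = 0.148). The gate's own genes were present in all LSK libraries, with Kit between 335 and 399 CPM and Ly6a, which encodes Sca-1, between 37.8 and 60.2 CPM. In KU812 the histidine decarboxylase gene HDC, a basophil and mast cell marker, lay between 1092 and 1256 CPM. Markers of other lineages were present too. In shNC, basophil and mast cell markers summed to 4934 and 4570 CPM and erythroid markers to 7882 and 8891 CPM. Megakaryocyte markers summed to 1937 and 1753 CPM and eosinophil markers to 1828 and 1635 CPM.

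In LSK cells the 4 granule enzyme genes lie at 3 loci of GRCm38, all protein-coding: Mpo on the plus strand of chromosome 11 from 87793581 to 87804413, Prtn3 and Elane beside each other on the plus strand of chromosome 10 from 79874476 to 79883174 and from 79886247 to 79888215, and Ctsg on the minus strand of chromosome 14 from 56099881 to 56102574. Their promoters are shown because these 4 genes held the highest levels of the group. Each window runs from 250 bases before the RefSeq transcription start (GRCm38.p6) to 50 bases after it, 5′ to 3′ on the gene's strand. Capitals mark the letters GAGGAA, searched as the core of PU.1 sites, and TATAA, searched as a TATA box.
Mpo, chr11:87793534-87793833, plus strand: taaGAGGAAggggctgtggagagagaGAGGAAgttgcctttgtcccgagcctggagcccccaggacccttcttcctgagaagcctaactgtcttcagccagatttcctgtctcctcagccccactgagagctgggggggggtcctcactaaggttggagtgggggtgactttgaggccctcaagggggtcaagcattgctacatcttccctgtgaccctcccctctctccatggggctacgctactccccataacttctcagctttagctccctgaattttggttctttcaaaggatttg
Prtn3, chr10:79879417-79879716, plus strand: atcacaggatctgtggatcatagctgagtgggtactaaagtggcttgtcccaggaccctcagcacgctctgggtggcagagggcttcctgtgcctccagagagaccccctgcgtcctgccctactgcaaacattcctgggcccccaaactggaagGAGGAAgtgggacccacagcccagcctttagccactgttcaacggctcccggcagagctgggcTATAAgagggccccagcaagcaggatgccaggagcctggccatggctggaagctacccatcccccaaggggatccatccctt
Elane, chr10:79886062-79886361, plus strand: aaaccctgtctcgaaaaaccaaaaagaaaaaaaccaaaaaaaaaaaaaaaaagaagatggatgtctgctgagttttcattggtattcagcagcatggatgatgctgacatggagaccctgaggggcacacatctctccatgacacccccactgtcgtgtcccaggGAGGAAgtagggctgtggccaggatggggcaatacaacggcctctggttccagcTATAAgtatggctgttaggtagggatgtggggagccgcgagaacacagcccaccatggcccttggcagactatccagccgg
Ctsg, chr14:56102525-56102824, minus strand: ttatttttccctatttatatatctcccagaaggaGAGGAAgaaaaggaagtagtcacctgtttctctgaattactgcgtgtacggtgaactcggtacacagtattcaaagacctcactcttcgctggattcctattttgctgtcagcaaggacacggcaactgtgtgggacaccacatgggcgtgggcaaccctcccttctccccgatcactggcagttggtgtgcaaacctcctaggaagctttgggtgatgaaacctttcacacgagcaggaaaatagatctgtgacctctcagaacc

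The GAGGAA letters began at position -95 from the start in Prtn3, -85 in Elane, -247 and -224 in Mpo and -216 in Ctsg. These positions count from the RefSeq starts. The annotated spans of Mpo and Elane (GENCODE M21) begin upstream of those starts, inside the windows, at 87793581 and 79886247. Searched on both strands, GAGGAA was found in 7 of the 8 mouse promoters, with Cst7 the exception, against 28.3% of 32851 promoters of the same length. TATAA, searched on the gene's strand, stood at -32 in Prtn3 and -31 in Elane and in none of the other 6, against 17.5% of all promoters. The RUNX letters TGTGGT were found in 4 of the 8 (Cd33, Clec12a, Cst7 and Ctsg; 16.8% of all), and the C/EBP letters TTNNGNAA in 3 (Clec12a, Cst7 and Ms4a3; 40.7% of all). The MYB letters AACNG were found in 6 (80.3% of all) and CCAAT in 3 (37.4% of all), both searched on both strands. No matches in these 8 windows overlapped each other, apart from a Clec12a C/EBP match that reads on both strands, and a match describes the sequence only.

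The LSK comparison asks which transcripts differ in stem and progenitor cells knocked out for Anp32b. Of the 8 genes, 7 had lower fitted levels in KO and 1, Cd33, a higher one, and 0 of 8 passed the threshold, as did 0 of all 14598 genes tested (0%; edgeR quasi-likelihood test). DESeq2 and limma-voom also called 0 of the 8. In the edgeR test 1 of the 8, Mpo, had an unadjusted p under 0.05, as did 657 of the 14598 genes tested. The median log2 fold change (KO over WT) of the 8 was -0.27, beside -0.0079 over all genes tested. The libraries of the 2 groups did not overlap for 3 of them: Mpo and Clec12a had both KO libraries below both WT libraries, as 15.6% of all genes did, and Cd33 had both above, as 17.7% did. In bulk RNA, fewer cells of a type and less RNA per cell cannot be told apart.

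Mpo, whose enzyme makes hypochlorous acid, was read at 6037 and 4492 CPM in WT and at 3102 and 4129 CPM in KO. These are 92105, 47076, 38133 and 59083 counts, or 0.587% and 0.446% of the counts in WT and 0.315% and 0.419% in KO. The first WT library was the highest and the first KO library the lowest, and the inner libraries, the second of each group, lay close together. The log2 fold change was -0.54, SE 0.23, and its 95% interval ran from -1.07 to -0.016 (unadjusted p = 0.0449, adjusted p = 0.986, edgeR quasi-likelihood test). Without the second WT library it was -0.74, and Mpo then passed (adjusted p = 0.0196) with 829 other genes among 830 called. Leaving out the first WT library gave -0.32, the first KO library -0.35 and the second KO library -0.76.

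The serine protease genes showed no separation of the groups. Elane stood at 1080 and 850 CPM in WT and at 651 and 1081 CPM in KO, so that the KO libraries were both the lowest and the highest of the 4 (log2 fold change -0.16, SE 0.26). Prtn3 stood at 996 and 1080 CPM in WT and at 825 and 1109 CPM in KO, with the same order of the KO libraries outside the WT range (log2 fold change -0.10, SE 0.19). Ctsg stood at 625 and 597 CPM in WT and at 429 and 601 CPM in KO, where only the first KO library lay outside the WT range (log2 fold change -0.25, SE 0.19). For all 3 the second KO library was at or above the lower WT library. Without the first KO library the log2 fold changes were 0.16 for Elane, 0.095 for Prtn3 and -0.025 for Ctsg, and without the second they were -0.57, -0.33 and -0.51.

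**Figure D1:**
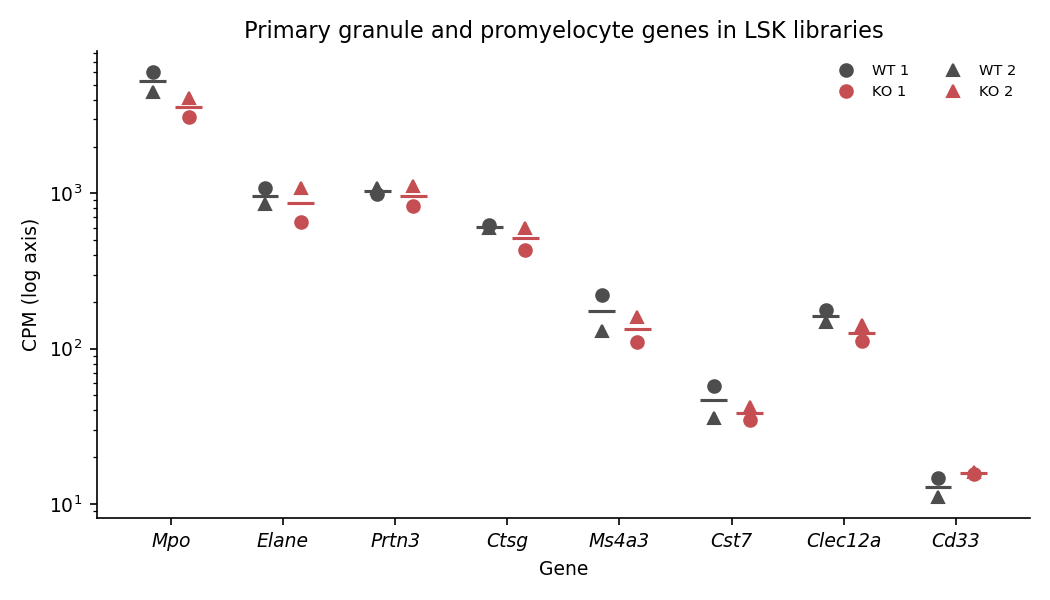
CPM on a log axis of the 8 genes listed in the LSK tables, with 1 point per library (circles for the first, triangles for the second replicate) and a bar at the mean of each group. The first KO library is the lowest of the 4 for every gene except Cd33, and the groups are apart only for Mpo, Clec12a and Cd33.

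Ms4a3 stood at 221 and 129 CPM in WT and at 110 and 159 CPM in KO, and Cst7 at 57.9 and 35.7 CPM in WT and at 34.6 and 42.3 CPM in KO. In both genes the first WT library was high, the first KO library low, and the second libraries crossed. The log2 fold changes were -0.38 (SE 0.27) for Ms4a3 and -0.29 (SE 0.24) for Cst7, and both turned positive without the first WT library, at 0.058 and 0.11. Without the second WT library Ms4a3 was at -0.72 and passed (adjusted p = 0.0329, edgeR quasi-likelihood test). Ms4a3 lies on the minus strand of chromosome 19 from 11629496 to 11640851 and Cst7 on the plus strand of chromosome 2 from 150570415 to 150578944.

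The fitted changes of the surface receptor genes lay on different sides of 0. Clec12a (chromosome 6, 129342691 to 129365303, plus strand), a C-type lectin with an inhibitory cytoplasmic motif, stood at 176 and 149 CPM in WT and at 112 and 142 CPM in KO, with a narrow gap between 142 and 149. The difference was -0.36 on the log2 scale (SE 0.17; unadjusted p = 0.0727, adjusted p = 0.986, edgeR quasi-likelihood test). Leaving out the first KO library gave -0.19, the second KO library -0.54 and the first WT library -0.23. Cd33 (chromosome 7, 43524216 to 43544428, minus strand), a sialic acid-binding lectin of the Siglec family, stood at 14.6 and 11.2 CPM in WT and at 15.6 and 16.0 CPM in KO. Its KO libraries were close together and above both WT libraries, with a log2 fold change of 0.29 (SE 0.22), which was 0.50 without the first WT library and 0.11 without the second. The 2 differences have not been compared with each other by a test.

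Per kilobase of annotated exon (union of exons, GENCODE M21), the WT levels covered a wide range. Mpo had a mean of 1538 CPM per kb in WT, rank 8 of the 13260 ranked genes. Elane followed at 981 (rank 24), Prtn3 at 599 (rank 53) and Ctsg at 592 (rank 55). On this scale Prtn3 and Ctsg did not differ beyond the spread of the libraries. The WT libraries held 575 and 624 CPM per kb of Prtn3 and 605 and 578 of Ctsg. Before division by length, Prtn3 was the higher, at 996 and 1080 against 625 and 597 CPM. The lengths were 1732 and 1033 bases, and the spread of libraries does not cover an error in them. The annotated span of Prtn3 begins at 79874476, upstream of its promoter window at 79879417. Use of that upstream part was not tested. Ms4a3 stood at 93.0 (rank 455), Cst7 at 47.4 (rank 1068) and Clec12a at 29.4 CPM per kb (rank 1939). Cd33 was the lowest at 1.66 CPM per kb, rank 10612. No source used here gives the strand setting of the counting, so reads of Mpo cannot be told apart from those of the antisense gene Gm11505, which shares 5361 bases of its span and is not listed in the tables.

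The neighbours of Prtn3 and Elane ranged from near the floor to the level of the proteases. Next to Elane, the complement factor D gene Cfd, 2638 bases away, held at most 0.651 CPM in any LSK library. Ptbp1, a splicing regulator on the other side of Prtn3, stood at 949 and 785 CPM in WT and at 816 and 780 CPM in KO. Prss57, a further granule serine protease within 100 kb, stood at 68.1 and 58.9 CPM in WT and at 43.8 and 71.4 CPM in KO, with the first KO library the lowest and the second the highest, as for Elane. Among all genes with a mean of at least 10 CPM, Tubb2a, Id2 and H2-Ab1 had the LSK profiles most like that of Mpo, with root mean square differences of 0.032, 0.048 and 0.053 in log2 CPM over 4 libraries. Of the group itself Clec12a was nearest (0.11, rank 37 of 9878) and Cd33 farthest (0.44, rank 7679).

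The KU812 comparison asks the same question of ANP32B knockdown in a leukemia line. Of the 4 genes tested, 3 fell with ANP32B knocked down (MS4A3, CST7 and CLEC12A), where 9.06% of all 16529 genes fell, and 0 rose, where 7.53% rose (edgeR quasi-likelihood test, adjusted p under 0.05). CD33 was the exception, with a higher level that did not pass. The groups did not overlap for any of the 4: both shANP32B libraries were below both shNC libraries for the 3 that fell, as for 28.9% of all genes, and above for CD33, as for 29.5%. The median log2 fold change of the 4 was -1.15, beside 0.0041 over all genes tested. Over all genes 1244 rose and 1497 fell. Scaled by library totals only, 1474 rose and 1182 fell, and the calls of the 3 genes held.

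MS4A3 stood at 88.6 and 79.8 CPM in shNC and at 17.2 and 15.8 CPM in shANP32B, from 2478, 1962, 446 and 392 counts. Replicates lay close to each other, and the gap between the groups was many times their spread (84.2 ± 6.22 against 16.5 ± 0.987 CPM; mean ± SD, n = 2 each). MS4A3 fell by 2.35 on the log2 scale (SE 0.14, adjusted p = 5.31e-07, edgeR quasi-likelihood test). Leaving out each library in turn kept it between -2.43 and -2.28.

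CST7 stood at 43.7 and 41.9 CPM in shNC and at 19.7 and 20.3 CPM in shANP32B. Both pairs of replicates were tight and the groups far apart. CST7 fell by 1.10 on the log2 scale (SE 0.14, adjusted p = 2.19e-04, edgeR quasi-likelihood test), and stayed between -1.14 and -1.07 when each library was left out. The gene of its target, CTSC, stood at 149 and 162 CPM in shNC and at 219 and 221 CPM in shANP32B and rose by 0.50 (SE 0.11, adjusted p = 0.00643, edgeR quasi-likelihood test), a call lost without the second shANP32B library (adjusted p = 0.0608).

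CLEC12A was scarce, at 5.15 and 4.56 CPM in shNC and 2.12 and 2.10 CPM in shANP32B, from 144, 112, 55 and 52 counts. The groups were apart with little spread within each. CLEC12A fell by 1.20 on the log2 scale (SE 0.33, adjusted p = 0.0235, edgeR quasi-likelihood test). Without the first or the second shANP32B library its log2 fold change stayed at -1.21, but the call was lost (adjusted p = 0.0963 and 0.108). CLEC12B, a related lectin, was read at 1.18 and 1.46 CPM in shNC and at 0.309 and 0.928 CPM in shANP32B and did not pass.

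CD33 stood at 113 and 109 CPM in shNC and at 136 and 125 CPM in shANP32B. Both shANP32B libraries were the higher, by a small margin. The log2 fold change was 0.23 (SE 0.11), and its 95% interval ran from -0.012 to 0.47 (adjusted p = 0.187, edgeR quasi-likelihood test). Among the genes with the KU812 profiles most like that of CD33 were ADORA2B and PRDX6, with root mean square differences of 0.011 each in log2 CPM over 4 libraries. Its relative SIGLEC6, a Siglec found on mast cells and trophoblast, rose by 0.95 (SE 0.10, adjusted p = 3.93e-05), from 500 and 463 to 881 and 975 CPM, and SIGLEC10 fell by 0.53 (adjusted p = 0.0453, lost on library totals and when any library other than the first shNC one was left out).

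CTSG and AZU1 were at the edge of detection in this line. CTSG had 16 and 8 counts in shNC and 1 and 7 counts in shANP32B. AZU1 had 43 and 2 counts in shNC and 1 and 2 in shANP32B, so that nearly all of its reads came from the first shNC library, and its 3 other libraries stood at or under the floor of 3 counts. Neither passed the filter on low counts. With the filter lifted CTSG had an adjusted p of 0.446 and AZU1 of 0.0569 (edgeR quasi-likelihood test). With the second shNC library left out AZU1 passed (adjusted p = 8.5e-04), a call that rests on 43 counts in 1 library.

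**Figure D2:**
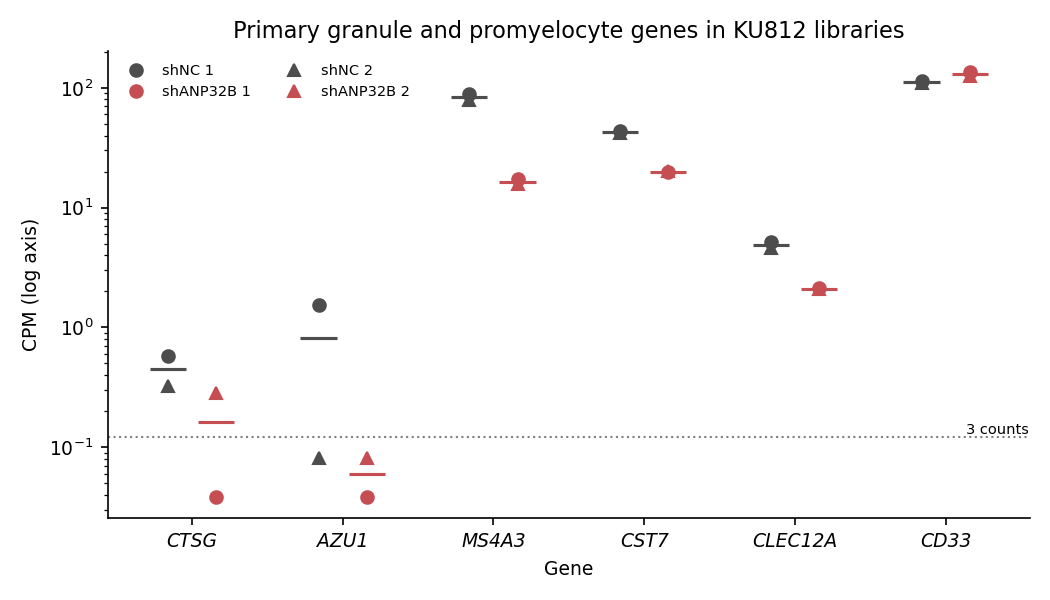
CPM on a log axis of the 6 genes listed in the KU812 tables, with 1 point per library (circles for the first, triangles for the second replicate) and a bar at the mean of each group. The dotted line marks 3 counts in the shallowest-scaled library, 0.122 CPM. MS4A3, CST7 and CLEC12A are lower in both shANP32B libraries, CD33 is slightly higher, and CTSG and AZU1 lie near or under the line in at least 1 library.

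Whether a gene responded differently in the 2 experiments was tested as an interaction, over 10771 symbols that the species share. Of the 5 genes of the group in that test 1 passed, MS4A3, where 2.22% of all symbols did. CTSG was among the 5 only through its mouse counts, since it did not pass the filter on low counts in KU812. Its value is therefore no test of a KU812 response. Its log2 fold change was lower in KU812 than in LSK by a difference of -1.95 (SE 0.33, adjusted p = 0.0141, edgeR quasi-likelihood test). The call was lost without the second KO library (-1.66, adjusted p = 0.0887), without the first shNC library (-1.86, adjusted p = 0.0543) and without the second shANP32B library (-1.90, adjusted p = 0.0767). CST7 differed by -0.79 (SE 0.29, adjusted p = 0.174) and CLEC12A by -0.83 (SE 0.25, adjusted p = 0.107), and neither passed with all 8 libraries. The SE of the CLEC12A difference was below that of its KU812 change alone, 0.33. CST7 passed without the first WT library, at -1.18 (adjusted p = 0.0241). CTSG differed by -1.23 (SE 0.72, adjusted p = 0.391), on few human counts, and CD33 by -0.039 (SE 0.20, adjusted p = 0.944). Species, cell type and the way ANP32B was lowered differ together between the experiments and cannot be told apart.

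**Figure D3:**
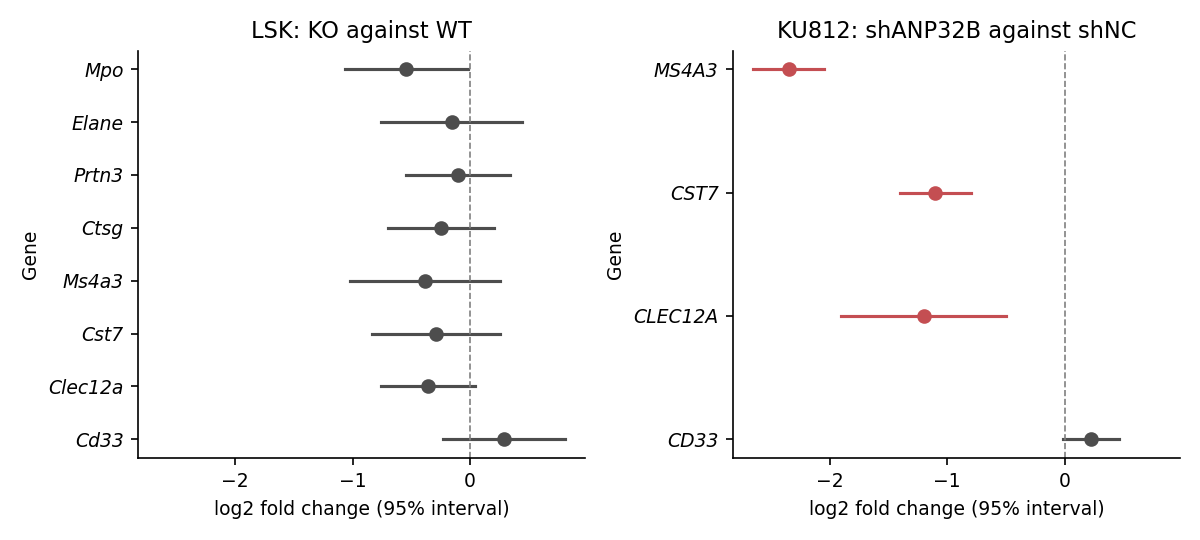
Log2 fold change with its 95% interval for the genes tested in LSK (KO over WT, left) and in KU812 (shANP32B over shNC, right), red where the adjusted p was under 0.05. In LSK 7 of 8 estimates lie below 0 with wide intervals, and in KU812 MS4A3, CST7 and CLEC12A lie at or below -1.10 while CD33 lies at 0.23.

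**Figure D4:**
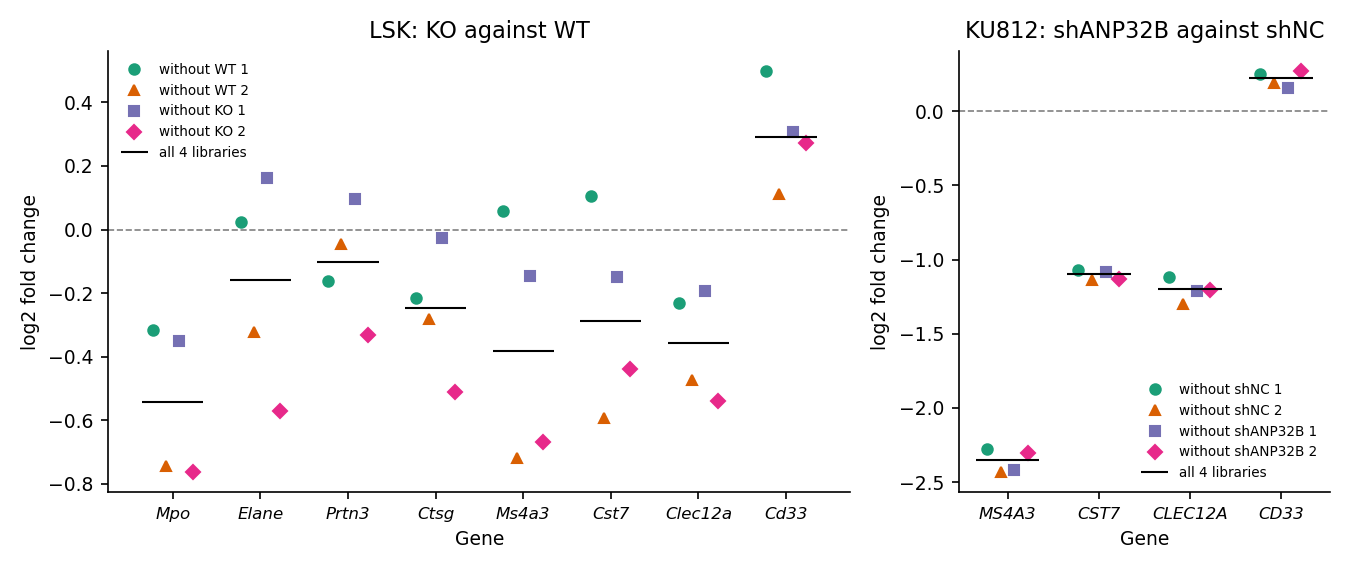
Log2 fold changes of the same genes with all 4 libraries (bar) and with each library left out in turn (points), LSK left and KU812 right. The LSK values of Elane, Prtn3, Ms4a3 and Cst7 cross 0 when 1 library is left out, while in KU812 no estimate changes its sign.

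Other constituents of the primary granule divided in KU812. Of 8 tested genes 4 fell and 2 rose, with a median log2 fold change of -1.04. Over all genes tested in KU812, 9.06% fell and 7.53% rose, the background for the list counts here and below. SRGN, the proteoglycan core that binds granule proteases, fell from 587 and 726 to 171 and 186 CPM, a log2 fold change of -1.88 (SE 0.12, adjusted p = 7.19e-07, edgeR quasi-likelihood test). RNASE2, the eosinophil-derived neurotoxin, fell from 18.7 and 20.7 to 2.32 and 2.82 CPM, a log2 fold change of -2.94 (adjusted p = 4.47e-06). RNASE3 and NKG7 also fell, on few counts. RNASE3 had 53 and 61 counts in shNC and 12 and 0 in shANP32B. NKG7 had 30 and 50 counts in shNC and 4 and 6 in shANP32B. Of the 4 genes that fell, RNASE2 and RNASE3 are eosinophil markers as well and NKG7 is a T and NK cell marker. The granule membrane tetraspanin CD63 rose by 0.93 (SE 0.12, adjusted p = 2.79e-04), from 157 and 199 to 324 and 356 CPM, beside CTSC. PRSS57 (-0.20) and LYZ (0.09) did not pass, and the neutrophil defensins and BPI were not listed. In LSK cells 0 of 7 tested genes of this list passed, at a median of -0.14.

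Hydrolases of the lysosome, the compartment to which the granule is related, mostly rose or did not pass in KU812. Of 24 genes 10 rose and 1 fell, at a median of 0.26. The cathepsin D gene CTSD rose from 290 and 311 to 522 and 552 CPM, a log2 fold change of 0.84 (SE 0.10, adjusted p = 1.19e-04, edgeR quasi-likelihood test), and the glycogen-degrading GAA rose by 0.72. CTSZ, a cysteine cathepsin, was the gene that fell, at -0.88 (adjusted p = 0.00187). Of 8 inhibitors of granule proteases the cystatin C gene CST3 (0.65) and A2M (1.22) rose and SERPINB9 (-0.45), an inhibitor of granzyme B, fell. The A2M call was lost without the second shANP32B library, and that of SERPINB9 when any library other than the second shNC one was left out and on library totals. SERPINB1, the inhibitor of elastase, cathepsin G and proteinase 3, was at -0.30 (adjusted p = 0.0874). In LSK cells 0 of 24 hydrolase and 0 of 8 inhibitor genes passed, at medians of -0.10 and -0.17.

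Among transcription factors of myeloid cells, 2 of 11 tested genes fell and 0 rose in KU812 (median -0.15), where 9.06% of all genes fell and 7.53% rose. CEBPA, which drives the step to granulocyte-monocyte progenitors, fell from 18.4 and 16.5 to 5.36 and 4.36 CPM, a log2 fold change of -1.84 (SE 0.22, adjusted p = 1.31e-04, edgeR quasi-likelihood test). CEBPB fell by 0.78 (adjusted p = 0.0309), a call lost without either shANP32B library or the first shNC library. MYB (-0.27; it passed at -0.35 without the first shNC library, adjusted p = 0.00146) and GFI1 (0.35) did not pass, nor did SPI1, which encodes PU.1 (-0.15), or RUNX1 (0.01). In LSK cells the estimates of the same C/EBP genes were above 0: Cebpa stood at 86.9 and 118 CPM in WT and at 126 and 152 CPM in KO (0.44), and Cebpb at 38.2 and 54.0 against 59.1 and 69.4 CPM (0.48). Both had all KO libraries above all WT libraries, as did 3 of the 14 factors in all and 17.7% of all genes tested. Of the 14 factors 0 passed. Without the second WT library both passed, at 0.67 (adjusted p = 0.0183) for Cebpa and 0.75 (adjusted p = 0.0205) for Cebpb, and without the first they were at 0.23 and 0.25 (edgeR quasi-likelihood test). In the interaction, looked up for these genes after their values were seen, CEBPA differed between the experiments by -2.26 (SE 0.26, adjusted p = 0.00208, edgeR quasi-likelihood test) and passed with each library left out in turn. CEBPB differed by -1.25 (adjusted p = 0.0461), and passed on leaving out 1 library only for the second WT library.

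In the list of Siglec, C-type lectin and MS4A relatives, 1 of 15 tested genes rose and 2 fell in KU812, at a median of 0.18. The shares over all genes tested there were 7.53% higher and 9.06% lower, also for the receptor and oxidase lists below. Besides the Siglecs named above, MS4A6A fell by 1.18 (SE 0.29, adjusted p = 0.0149, edgeR quasi-likelihood test), a call lost without the first shNC or the second shANP32B library. MS4A2, the beta chain of the high-affinity IgE receptor, stood at 124 and 76.3 CPM in shNC and 144 and 126 CPM in shANP32B and did not pass (0.43). It was at 0.82 without the first shNC library and passed (adjusted p = 1.31e-08, edgeR quasi-likelihood test), and at 0.11 without the second. In LSK cells 0 of 12 passed (median -0.39), with the beta-glucan receptor gene Clec7a at 21.1 and 13.5 CPM in WT and 7.08 and 7.90 CPM in KO (-1.21; it passed at -1.50 without the second WT library, adjusted p = 0.00352). Of 12 receptors of granulocyte-monocyte progenitors in KU812, ANPEP (0.49) rose and CD34 (-1.83) fell, at a median of -0.12, and the ANPEP call was lost without the first shANP32B library. Of the 7 NADPH oxidase genes RAC1 rose (0.52; lost without the second shANP32B library) and 0 fell, at a median of 0.20. In LSK cells 0 of 14 receptor and 0 of 7 oxidase genes passed, at medians of -0.063 and -0.11.

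Markers of other cell types moved beside these genes. In KU812 the eosinophil list had the lowest median of the lists, -2.69, with 6 of 7 tested genes lower. Its summed level was 1635 to 1828 CPM in shNC and 568 to 652 CPM in shANP32B. Most of that sum was PRG2, at 1740 and 1541 CPM in shNC and 544 and 631 CPM in shANP32B. EPX, the eosinophil peroxidase and closest relative of MPO, fell from 17.8 and 18.5 to 0.887 and 0.726 CPM, a log2 fold change of -4.48 (SE 0.27, adjusted p = 6.85e-07, edgeR quasi-likelihood test). Of the basophil and mast cell list 3 of 9 rose, the carboxypeptidase gene CPA3 (1.06) and the tryptase genes TPSAB1 (1.21) and TPSB2 (1.26), near-identical copies whose reads may be shared, and 0 fell. The sum of that list was 4570 to 4934 CPM in shNC and 5852 to 5869 CPM in shANP32B. The erythroid list had 8 of 13 lower and 0 higher, with sums of 7882 to 8891 CPM in shNC and 5381 to 5768 CPM in shANP32B. Most of these sums came from TFRC and HBG2. In shNC, TFRC stood at 3837 and 4186 CPM and HBG2 at 3206 and 3754 CPM. In shANP32B, TFRC stood at 2444 and 2638 CPM and HBG2 at 2331 and 2524 CPM. The part of these shifts in the fall of MS4A3, CST7 and CLEC12A was not tested.

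Late neutrophil genes are made after the promyelocyte stage. In KU812 3 of 7 tested genes rose from low levels and 0 fell: S100A8 (from 0.93 and 1.38 to 7.10 and 6.33 CPM, log2 fold change 2.54), S100A9 (2.31) and MMP9 (1.87), the last lost without the second shNC or the first shANP32B library. The summed level of that list was 20.0 to 21.9 CPM in shNC and 37.8 to 38.5 CPM in shANP32B, and 7 of its 15 genes, CD177 and MMP8 among them, were not listed. In LSK cells 0 of 15 passed, 13 had estimates below 0 and the median was -0.58, with Chil3 at 125 and 67.0 CPM in WT and 28.1 and 28.8 CPM in KO (-1.75, adjusted p = 0.829, edgeR quasi-likelihood test). The Chil3 call depends on the method: it passed with DESeq2 (adjusted p = 4.94e-07) and, in edgeR, without the first WT library (-1.24, adjusted p = 0.00776) or the second (-2.13, adjusted p = 6.47e-06), and not with limma-voom (adjusted p = 0.113). In the interaction S100A8 and S100A9 differed between KU812 and LSK by 3.03 and 2.91 (adjusted p = 4.35e-04 each, edgeR quasi-likelihood test) and passed with each library left out. The SEs of these differences, 0.24 and 0.26, were below those of the KU812 changes alone, 0.35 and 0.44. The joint model takes 1 dispersion per gene from both experiments, so these SEs do not rest on KU812 alone. The part of the higher mouse counts in them was not tested. The late neutrophil list in LSK summed to 1469 to 1541 CPM in WT and 963 to 1087 CPM in KO. Monocyte and macrophage markers were at a median of -0.60 with sums of 647 to 978 CPM in WT and 567 to 580 CPM in KO, the first WT library the highest, as it was for Mpo. Their part in the lower Mpo estimate, which did not pass, was not tested.

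**Figure D5:**
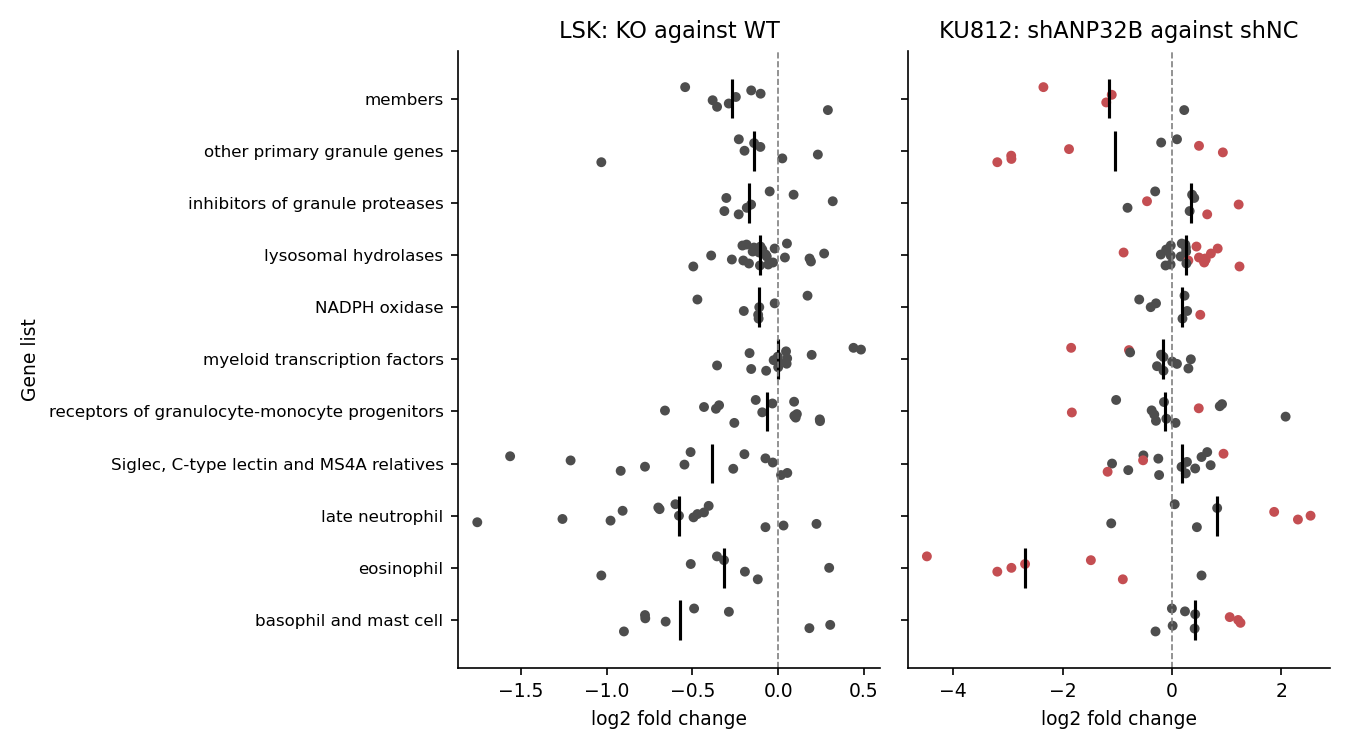
Log2 fold changes of the genes tested in each list, in LSK (left) and KU812 (right), with 1 point per gene, red where the adjusted p was under 0.05, and a black bar at the list's median. The horizontal scales of the panels differ. In KU812 the eosinophil and other primary granule lists have medians of -2.69 and -1.04, lysosomal hydrolases lie mostly above 0, and in LSK no gene is red.

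The other marker lists were little occupied or gave few calls. In LSK cells eosinophil markers had a median of -0.32 with sums of 28.4 to 71.0 CPM over the 4 libraries, the lowest in the first KO library, where Mpo and the proteases were lowest too. Basophil and mast cell markers were at -0.57, T and NK cell markers at -0.87, B cell markers at -0.18, stromal and endothelial markers at -0.62, erythroid markers at 0.20, megakaryocyte markers at 0.023 and stem cell markers at 0.14, with 0 genes passing in each. In KU812 the megakaryocyte list had 1 rise and 1 fall among 7 genes, the B cell list 1 fall among 3 and the T and NK list 1 fall, NKG7, among 6. The stromal list had 2 rises among 6 and the stem cell list 2 rises and 1 fall among 7. Of the monocyte list CCR2 rose (1.92) among 6. Beside these KU812 lists, 7.53% of all genes tested rose and 9.06% fell.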

How the data were processed

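The authors deposited whole-number counts per gene symbol, 1 table per library, not normalized, per the file headers and values. Trizol RNA (1 ug of total RNA) went into standard Illumina libraries, per the labels' protocols. Named without roles or versions in the submitters' processing notes are the tools HISAT2, TopHat, Cufflinks and DESeq and the builds GRCm38 and GRCh38. No source used here gives the counting tool, strand setting or annotation. Listed genes have 10 or more counts summed over their 4 libraries. Library totals and floors are given with the levels.

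Each experiment was fitted alone in edgeR 4.0.16 (R 4.3.3) with filterByExpr, TMM scaling and the two-sided quasi-likelihood test, group as the only term, with Benjamini-Hochberg adjustment over all genes tested and a threshold of 0.05. The SE is the coefficient divided by the root of F, and 95% intervals use the moderated degrees of freedom. The interaction used 1 model over 8 libraries and 10855 symbols equal in upper case, 10771 of them tested. It takes 1 dispersion per gene from both experiments, so its SE can fall below that of KU812 alone for genes with few human counts. The scripts were tested on simulated data, where false calls in both experiments were more frequent than the threshold's nominal share and few small changes were recovered in LSK. Replicates differed beyond sampling noise in all 4 groups, which technical differences can also produce. Each library was counted as 1 sample, though the labels do not say that the libraries are independent.

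The genes, lists and tests were chosen with earlier results of these data known. Named genes are the 9 members, ANP32B, up to 4 genes per list with the smallest p, the 3 nearest profiles (mean CPM of at least 10, pseudocount 0.5) and neighbours within 100 kb. Some genes that this rule takes are not reported here. Other names (PRSS57, LYZ, SERPINB1, GFI1, SPI1, RUNX1, CLEC12B, MS4A2, RNASE3, NKG7, TFRC, HBG2 and the gate and basophil genes) were chosen after their values were seen, as were the 7 list genes looked up in the interaction (CEBPA, CEBPB, CTSC, EPX, S100A8, S100A9 and SRGN). Alternatives were DESeq2 1.42.0, limma-voom (limma 3.58.1) with quality weights, library totals, no filter, a replicate block and leaving out each library. Mouse coordinates (GENCODE M21, 1-based) and RefSeq promoters matched all 8 mouse genes by symbol. GENCODE M21 holds 0 genes named Azu1. Human coordinates and protein sequences were not used here.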

Additional observations from a re-analysis of the deposited data

Results flagged for a closer look

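The response of MS4A3 differed between the experiments in a direct test of the difference: its log2 fold change was lower in KU812 than in LSK by a difference of -1.95 (adjusted p = 0.0141 over 10771 symbols, edgeR quasi-likelihood test). Its fold change was below 0 in both, at -2.35 in KU812 and -0.38 in LSK. The KU812 groups were far apart and the LSK libraries overlapped. The call was lost without the second KO, the first shNC or the second shANP32B library. The other genes here were looked up in the same test because of their changes in each experiment, so how many passed says nothing of their lists, and 2.22% of all symbols passed. CEBPA differed by -2.26, CEBPB by -1.25, EPX by -4.11, SRGN by -1.67, S100A8 by 3.03 and S100A9 by 2.91, and these 6 passed, while CTSC (0.62, adjusted p = 0.107) did not. CEBPA, S100A8 and S100A9 passed with each library left out in turn. EPX lost its call without the second shANP32B library, SRGN without either KO or either shANP32B library, and CEBPB without any library other than the second WT one. Cell type, species and the means of lowering ANP32B cannot be told apart in these differences. The SEs of the S100A8 and S100A9 differences, 0.24 and 0.26, were below those of their KU812 changes alone, 0.35 and 0.44. Leaving out libraries does not cover this limit. Groups of 2 libraries are too small for a check on outlying libraries.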

How the results depend on the processing

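In LSK cells 0 of the 8 genes passed under library totals, DESeq2, no filter, limma-voom and the replicate block, and 0 to 2 when each library was left out (2, Mpo and Ms4a3, without the second WT library). Genes called over the whole LSK table were 0 with all libraries, 15 with DESeq2, 2 with limma-voom, 15 with the replicate block, and 0 to 830 when each library was left out. Over the same omissions Elane ran from -0.57 to 0.16, Ms4a3 from -0.72 to 0.058, Cst7 from -0.59 to 0.11 and Prtn3 from -0.33 to 0.095. In KU812 the 3 calls (MS4A3, CST7 and CLEC12A) held under library totals, DESeq2, no filter, limma-voom and the replicate block, and 2 to 4 genes passed when each library was left out. Genes called over the KU812 table were 2741, and 4164 with the replicate block. They ran from 1413 to 4047 over the omissions. Of the 5 genes of the group in the interaction, 1 passed with all libraries, on library totals, without a filter and with the replicate block, and 0 to 2 over the omissions. CTSG was among the 5 through its mouse counts. The CD33 interaction ran from -0.25 to 0.13. IL3RA in KU812 ran from -0.25 to 2.91, since its level in the first shANP32B library was 4.40 CPM against 0.484 to 0.651 CPM in the others. With the replicate block Chil3 passed in LSK (adjusted p = 0.00305), and MS4A2 (0.46, adjusted p = 7.44e-04) and MYB (-0.27, adjusted p = 0.0223) passed in KU812 (edgeR quasi-likelihood test). The cause of these changes was not tested. Same-numbered libraries share only a number in the labels: the correlation of their deviations was -0.078 in LSK and 0.17 in KU812. Depth limits CTSG and AZU1 in KU812, at 1 to 43 counts per library. In LSK the knocked-out gene itself did not pass, so a gene that did not pass there is not shown to be unchanged.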
